A study of Homo sapiens with 18 samples.

Results

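The 9 genes described here code for ETS transcription factors, and they were taken by symbol from the 19901 genes of the count table. They are the PEA3 group with ETV1, ETV4 and ETV5, the founding pair ETS1 and ETS2, and the epithelial ETS factors ELF3, EHF, SPDEF and ELF5. All 9 were among the 15475 genes that passed the filter on low counts and were tested, but ELF5 passed it only through its counts in 1 of the 6 groups, untreated Detroit 562. The genes were chosen by family and name, with earlier results of these data known.

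Head and neck squamous cell carcinoma (HNSCC) cells of 3 established lines were compared by mRNA sequencing with and without hepatocyte growth factor (HGF), the ligand of the receptor tyrosine kinase Met. The lines were Detroit 562, from a metastatic site of a pharyngeal tumor, FaDu, from the hypopharynx, and SCC-9, from the tongue. Each line had 3 control libraries of untreated cells and 3 libraries of cells kept with 50 ng/mL HGF. The time with HGF was 16 h by the sample records and by the sequencing methods of the paper, and 48 h by the series record. Control and HGF cells of a line shared their medium, MEM-α for Detroit 562 and FaDu and DMEM F12 with hydrocortisone for SCC-9, so line and medium cannot be told apart when SCC-9 is set against the others. The libraries held 35304770 to 44003970 gene counts each. By the methods the experiment was repeated, and the control and HGF libraries of a line are numbered. Equal numbers were taken to mark the same repeat, which the labels do not state. The p-values measure the spread between repeats within these 3 lines. The model takes 1 estimate of that spread per gene over all 18 libraries. The error given for a line is therefore not from its own repeats alone.

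ETS factors share a DNA-binding domain that reads a GGAA core, and they differ in the cells that use them and in the signals that reach them. PEA3 proteins act downstream of receptor tyrosine kinases, and their genes are held down by the repressor CIC, which reads the octamers TGAATGAA and TGAATGGA and loses its hold when the kinase ERK is active. ETS1 and ETS2 are phosphorylated by ERK and act in invasion and protease expression, while ELF3, EHF, ELF5 and SPDEF are largely restricted to epithelia, where they act in differentiation and secretion.

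The epithelial label of the lines was checked against 7 markers (EPCAM, CDH1, KRT5, KRT14, KRT8, KRT18 and TP63), whose summed normalized count lay between 138103 and 511609 in every library. The sum over 6 markers of leukocytes, endothelium and fibroblasts lay between 183 and 3585 and was mostly COL1A1. The leukocyte markers PTPRC and CD3E had 0 to 4 counts per library, and the fibroblast marker DCN had 40 to 73 counts in SCC-9 and at most 1 in the other lines. With HGF, the epithelial marker sum was 138103 to 202352 in Detroit 562 against 210706 to 301113 in the controls. The sum over the 6 other markers was lower there too, at 444 to 486 against 699 to 878. The part of the epithelial marker change in the values of the epithelial ETS factors was not tested. In such bulk libraries, fewer cells with a transcript and less transcript per cell cannot be told apart.

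Promoter sequences are shown for 3 of the genes because their counts went in different directions in these libraries, with ETV1 higher, ELF3 lower and SPDEF near 0 in 2 of the 3 lines. RefSeq windows on GRCh38.p14, from 250 bases before to 50 bases after a start site, were found for 6 of the 9 genes. ETV1 lies on the minus strand at chr7:13891228-13991425, and its window at chr7:13991376-13991675 starts from the same base as the gene in the count table. SPDEF lies on the minus strand at chr6:34537802-34556333 with its window at chr6:34556280-34556579. In both windows the capitals mark the 1 match to TGAATGAA or TGAATGGA on either strand, beginning 125 bases before the ETV1 start site and 169 bases before that of SPDEF. Among 35116 such promoters, 2.63% held a match. ELF3 lies on the plus strand at chr1:202007945-202017188 with its window at chr1:202010337-202010636, where the capitals mark 2 matches to GGAA, read as TTCC on the other strand. A GGAA core was in 95.5% of all windows of this length.
ETV1 promoter: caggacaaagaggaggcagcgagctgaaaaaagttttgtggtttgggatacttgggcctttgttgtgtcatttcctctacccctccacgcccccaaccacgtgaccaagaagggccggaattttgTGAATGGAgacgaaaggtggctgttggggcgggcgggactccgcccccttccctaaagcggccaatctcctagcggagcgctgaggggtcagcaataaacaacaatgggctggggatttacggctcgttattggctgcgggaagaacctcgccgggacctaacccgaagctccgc
SPDEF promoter: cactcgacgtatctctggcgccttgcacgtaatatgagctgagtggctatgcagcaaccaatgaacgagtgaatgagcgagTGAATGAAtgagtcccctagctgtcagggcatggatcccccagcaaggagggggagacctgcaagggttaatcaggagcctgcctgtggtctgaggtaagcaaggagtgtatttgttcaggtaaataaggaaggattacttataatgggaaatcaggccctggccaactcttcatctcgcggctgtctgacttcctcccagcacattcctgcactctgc
ELF3 promoter: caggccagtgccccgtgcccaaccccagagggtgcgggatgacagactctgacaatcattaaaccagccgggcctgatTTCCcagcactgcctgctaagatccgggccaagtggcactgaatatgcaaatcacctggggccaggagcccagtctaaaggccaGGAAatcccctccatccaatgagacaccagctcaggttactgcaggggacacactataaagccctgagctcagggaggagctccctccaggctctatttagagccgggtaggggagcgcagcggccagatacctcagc

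ETV1 has 6 windows from different start sites, and the one shown is the only one of them with such an octamer. SPDEF has 1 window, and none of the 6 windows of the other genes held a match. No window held the longer ETS motif CCGGAAGT, present in 4.14% of all promoters, or the AP-1 motif TGACTCA, present in 4.95%, on either strand.

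HGF was followed by higher counts of the PEA3 genes and lower counts of ELF3 in all 3 lines. ETS1 was higher in Detroit 562 and FaDu, EHF was lower in Detroit 562, and ETS2 moved little. In Detroit 562, control 3 was the control nearest to the HGF values for each gene except ETS2. A gene was called where its adjusted p was under 0.1 and its log2 fold change reached 0.4 or -0.4. ELF5 is left out of the counts of called genes, since it passed the filter through the very group in which it was high. By this rule 5 of the other 8 genes were called in Detroit 562, where 17.9% of all genes tested were called. The 3 that rose were ETV4, ETV5 and ETS1 (6.16% of all genes rose), and the 2 that fell were ELF3 and EHF (11.7% fell). Without control 1 the count was 2, and without control 3 it was 7. None was called in FaDu or SCC-9, where 0.0258% and 0% of all genes were called. In SCC-9, DESeq2 called none of the 8 either (0.0871% of all genes), and edgeR gave 3 of them (ETV1, ETV4 and ETV5) an unadjusted p under 0.05, as it did 4.14% of all genes. In FaDu, DESeq2 called 1 gene, ETV4 (0.328% of all genes), and edgeR gave 3 of the 8 (ETV4, ETV5 and ETS1) an unadjusted p under 0.05 (8.06%).

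The same-numbered control and HGF libraries deviated together from their group means, and a fit that took the replicate number in as a block gave narrower errors. It called 6 of the 8 genes in Detroit 562 (21.5% of all genes), 5 in FaDu (5.6%) and 4 in SCC-9 (1.97%). ETV1, ETV4 and ETV5 rose and ELF3 fell in every line in that fit, and ETS1 rose in Detroit 562 and FaDu. Averaged over the lines, without the block, 5 genes were called, beside 6.89% of all genes. ETV1, ETV4, ETV5 and ETS1 rose, as did 2.02% of all genes, and ELF3 fell, as did 4.88%. The blocked fit called the same 5 (8.8% of all genes).

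**Figure D1:**
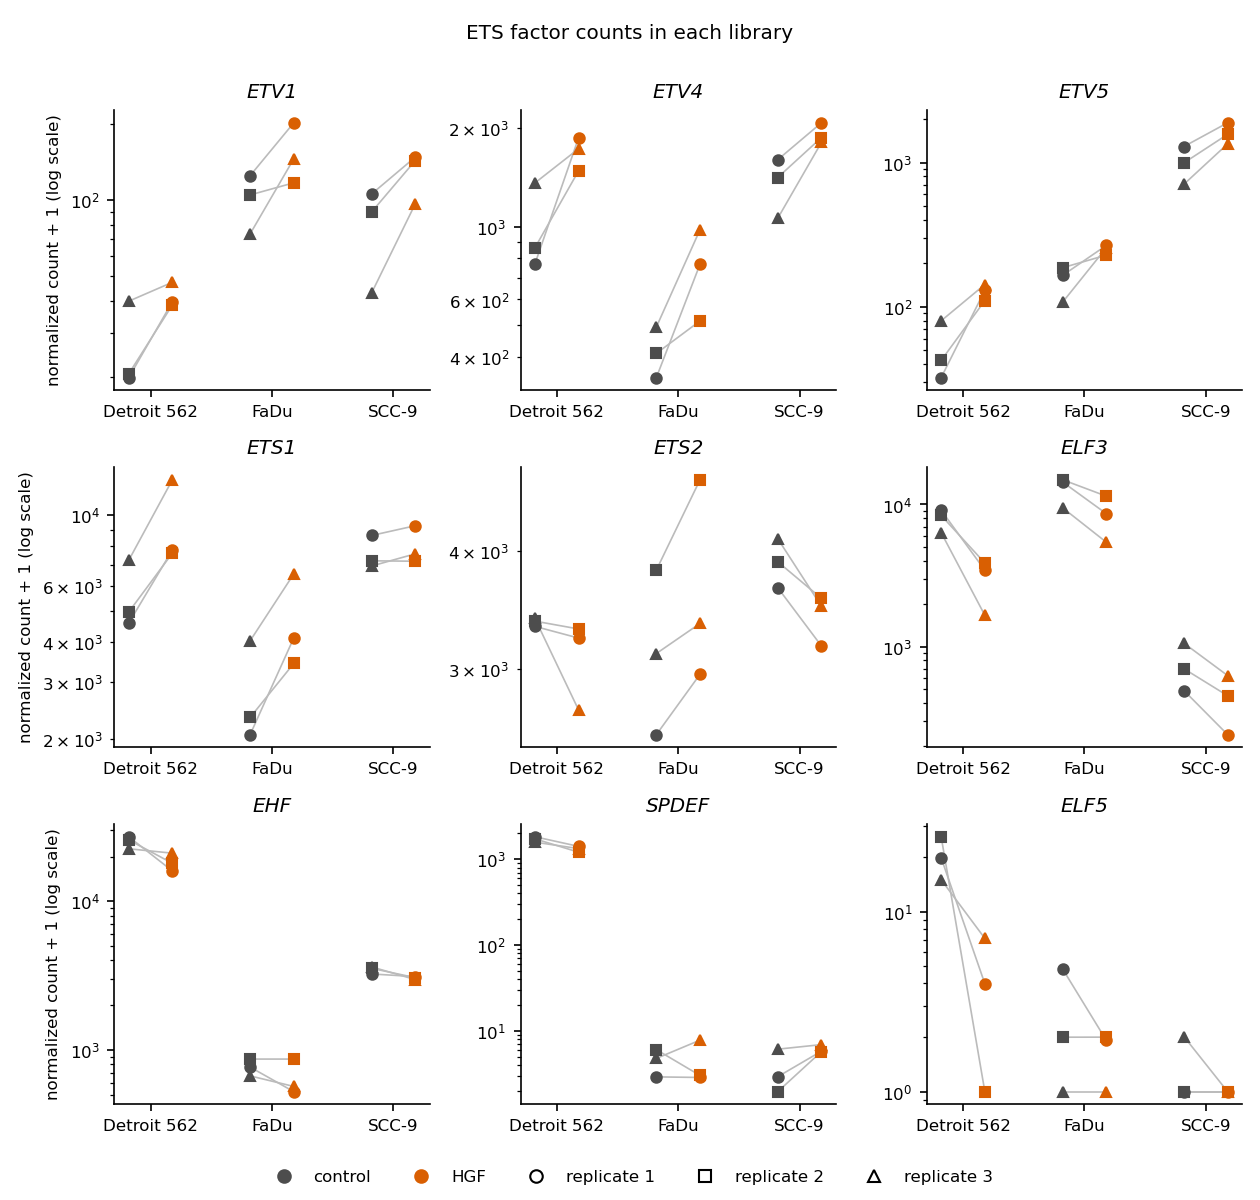
Normalized count plus 1 (log axis, with its own range in each panel) of the 9 ETS genes in each library, with control in grey and HGF in orange, symbols for the replicate number and lines joining same-numbered libraries. In the ETV1, ETV4 and ETV5 panels all 9 lines go up and in the ELF3 panel all 9 go down, while SPDEF and ELF5 are near the bottom of the axis in FaDu and SCC-9.

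ETV4 (PEA3), the most abundant PEA3 gene in all 3 lines, lies on the minus strand at chr17:43527844-43579620. Its normalized counts in Detroit 562 were 769, 861 and 1358 in controls 1 to 3 and 1866, 1479.7 and 1727 with HGF. In FaDu they were 346, 409.8 and 493 against 768, 515 and 979, and in SCC-9 they were 1599, 1411 and 1059.7 against 2073, 1868 and 1805. Every HGF library lay above every control library of its line, which held for 18.1% of all genes in Detroit 562, 4.05% in those of FaDu and 8.3% in those of SCC-9. ETV4 rose by 0.76 ± 0.22 on the log2 scale (SE, n = 3 against 3) in Detroit 562, with an edgeR adjusted p of 0.0212. FaDu gave a log2 fold change of 0.86 ± 0.23 (adjusted p = 0.436, with the block 0.00457) and SCC-9 one of 0.50 ± 0.22 (adjusted p = 1, with the block 0.0702). DESeq2 called ETV4 in FaDu at an adjusted p of 0.0403, and edgeR called it without HGF library 2 (log2 fold change 1.07, adjusted p = 0.0915). In Detroit 562 the call was lost without control 1 (0.61, adjusted p = 0.12).

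ETV5 (ERM), which acts with ETV4 in epithelial branching, lies on the minus strand at chr3:186046308-186110318. Its normalized counts in Detroit 562 were 31.2, 41.4 and 78.8 in the controls (33, 38 and 73 reads) and 129, 109 and 142 with HGF. FaDu had 164, 185 and 106 against 265, 227 and 255, and SCC-9 had 1289.9, 994 and 706 against 1886, 1568 and 1347. Control and HGF libraries did not overlap in any line. In Detroit 562 ETV5 had the highest fitted change of the PEA3 genes, a log2 fold change of 1.34 ± 0.31 (SE) with an edgeR adjusted p of 0.00697. It was 0.72 ± 0.26 in FaDu (adjusted p = 0.552, with the block 0.0117) and 0.68 ± 0.23 in SCC-9 (adjusted p = 1, with the block 0.00531). The Detroit 562 call held without each library in turn, at adjusted p from 0.00119 to 0.0511. The gene shares 4651 bases (chr3:186105668-186110318) with DGKG on the same strand, and reads there were counted for both genes. DGKG had 6 to 142 counts per library, 4.18% to 33.3% of the ETV5 count, so at most this share of ETV5 could be shared reads. The highest share, 33.3%, was in Detroit 562 control 1.

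ETV1 (ER81), a PEA3 factor known from sensory neurons and interstitial cells of the gut and from gene fusions in prostate cancer, was the least abundant of the group. Its normalized counts in Detroit 562 were 18.9, 19.6 and 38.9 in the controls and 38.7, 37.6 and 46.4 with HGF, from 18 to 39 reads per library. In FaDu they were 124, 104 and 72.5 against 201, 116 and 145, and in SCC-9 they were 105, 88.6 and 41.9 against 147, 142 and 95.5. Each HGF library exceeded the control of its own number, but the groups overlapped in all 3 lines. The fitted log2 fold changes were 0.67 ± 0.39 (SE) for Detroit 562, 0.62 ± 0.31 for FaDu and 0.70 ± 0.32 for SCC-9, none of them called by edgeR (adjusted p = 0.222, 0.623 and 1). With the block the adjusted p was 0.0474, 0.0281 and 0.0365, and ETV1 was called in each line. Without Detroit 562 control 3, which lay nearest to the HGF libraries, it was called in that line without the block as well (log2 fold change 1.08, adjusted p = 0.0708).

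Over the 9 same-numbered pairs, the 3 PEA3 genes were higher with HGF in 9 of 9, which held for 7.7% of all genes tested. In an exact two-sided permutation test of the mean difference, with labels exchanged within lines, ETV4 and ETV5 reached p = 0.00025, the smallest that the 8000 arrangements allow, as did 1.2% of all genes. ETV1 gave p = 0.0035 in the same exact test. Adjusted over all genes these were 0.0209, 0.0209 and 0.0398, and 24.8% of all genes passed an adjusted p below 0.1 in this test. The averaged log2 fold changes of the edgeR fit were 0.71 ± 0.13 for ETV4, 0.91 ± 0.16 for ETV5 and 0.66 ± 0.20 for ETV1 (SE, adjusted p = 0.00396, 0.00295 and 0.028).

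Whether the response differed between lines was tested as an interaction. Without the block neither edgeR nor DESeq2 called any of the 9 genes, and no PEA3 gene had an unadjusted p under 0.05, beside 0.239%, 0.924% and 0% of all genes for Detroit 562 minus FaDu, Detroit 562 minus SCC-9 and FaDu minus SCC-9. With the block these shares were 19.1%, 26.9% and 1.32%, and ETV5 was called for Detroit 562 minus SCC-9, with a difference in log2 fold change of 0.66 (95% interval 0.09 to 1.23, adjusted p = 0.0993). The interval without the block, -0.17 to 1.48, included 0.

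ETS1, a factor of invasive and mesenchymal programs, lies on the minus strand at chr11:128458761-128587558. Its normalized counts in Detroit 562 were 4593, 4976 and 7223 in the controls and 7787, 7612 and 12914 with HGF. Those of FaDu were 2055, 2327 and 4043 against 4132, 3437 and 6552, and those of SCC-9 were 8640.2, 7200.3 and 6932 against 9271, 7177 and 7570.2. All HGF libraries were above all controls in Detroit 562, as held for 18.1% of all genes there, and the groups overlapped in the other lines. Replicate 3 was the highest of its group in Detroit 562 and FaDu, in control and HGF cells alike. The log2 fold change was 0.75 ± 0.28 (SE) in Detroit 562 (edgeR adjusted p = 0.0547) and 0.74 ± 0.28 in FaDu (adjusted p = 0.557, with the block 2.98e-05). For SCC-9 the value was 0.08 ± 0.27, and it was not called with the block either (adjusted p = 0.654). The Detroit 562 call was lost without control 1 (adjusted p = 0.205), control 2 (0.165) or HGF library 3 (0.276).

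The ETS1 response of SCC-9 differed from that of both other lines in the blocked fit. The difference in log2 fold change was 0.66 for Detroit 562 minus SCC-9 (95% interval 0.46 to 0.87, adjusted p = 0.000351) and 0.68 for FaDu minus SCC-9 (0.48 to 0.88, adjusted p = 0.00516). Without the block the intervals were -0.144 to 1.498 and -0.16 to 1.49 (adjusted p = 0.413 and 1). ETS1 was higher with HGF in 8 of 9 pairs (exact permutation p = 0.0165, 0.0801 adjusted over all genes), and the 1 exception was SCC-9 pair 2 with 7200.3 against 7177.

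ETS2, the closest relative of ETS1, lies on the plus strand at chr21:38805307-38824955 and was not called for HGF against control in any line or fit that was run. Its normalized counts in Detroit 562 were 3327, 3371 and 3392 in the controls and 3234, 3306 and 2713 with HGF. In FaDu they were 2555, 3817 and 3114 against 2961, 4758 and 3352, and in SCC-9 they were 3657, 3896 and 4121 against 3172, 3562 and 3495. All 3 pairs were lower with HGF in Detroit 562 and in SCC-9, and all 3 were higher in FaDu. The log2 fold changes were -0.12 ± 0.15, 0.22 ± 0.15 and -0.19 ± 0.15 (SE, edgeR adjusted p = 0.577, 0.685 and 1). The block gave it an adjusted p of 0.0901 in Detroit 562 and 0.0307 in FaDu, with changes below the minimum of 0.4.

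ELF3 (ESE-1), an epithelial factor of differentiation and of the response to inflammatory signals, had the highest level per kb of exon of the 9 genes in FaDu. In Detroit 562 its normalized counts were 9104, 8377 and 6339 in the controls and 3446, 3872 and 1660.3 with HGF. FaDu had 14397, 14923 and 9484 against 8619, 11442 and 5430.2, and SCC-9 had 490.1, 698 and 1057 against 239.6, 451 and 625. Every HGF library was below the control of its own number, in 9 of 9 pairs, which held for 8.42% of all genes. The groups did not overlap in Detroit 562, where all HGF libraries were below all controls for 20.1% of genes, and overlapped in FaDu and SCC-9.

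In Detroit 562 ELF3 fell by 1.41 on the log2 scale (SE 0.36, edgeR adjusted p = 0.0111), to 0.377 of the control level. The call held without each library in turn, at adjusted p from 0.00853 to 0.053. FaDu gave -0.61 ± 0.35 (adjusted p = 0.648, with the block 0.00192) and SCC-9 gave -0.77 ± 0.38 (adjusted p = 1, with the block 0.00785). With the block, the fall in Detroit 562 differed from that in FaDu by -0.83 (95% interval -1.17 to -0.49, adjusted p = 0.00462) and from that in SCC-9 by -0.68 (-1.08 to -0.29, adjusted p = 0.0194). Without it the intervals were -1.86 to 0.26 and -1.74 to 0.47. Over the 3 lines the exact permutation p was 0.002 (0.0332 adjusted over all genes).

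EHF (ESE-3), a factor of glandular and squamous epithelia, lies on the plus strand at chr11:34621093-34661057. In Detroit 562 its normalized counts were 27180.2, 25879.5 and 22558 in the controls and 15989, 18009.6 and 21066 with HGF. In FaDu they were 763, 865 and 666 against 522, 865 and 565, and in SCC-9 they were 3239, 3537 and 3616 against 3109.7, 3059 and 2969. The groups did not overlap in Detroit 562 or in SCC-9, where the HGF libraries were below the controls for 20.1% and 9.12% of genes. They overlapped in FaDu. EHF fell in Detroit 562 by 0.46 on the log2 scale (SE 0.14, edgeR adjusted p = 0.0299), and the call was lost without control 1 (adjusted p = 0.126) or HGF library 1 (-0.37, adjusted p = 0.103). The log2 fold changes of -0.23 ± 0.15 in FaDu and -0.19 ± 0.15 in SCC-9 were not called, with or without the block. EHF was lower with HGF in 8 of 9 pairs, with FaDu pair 2 level (exact permutation p = 0.0095, 0.0608 adjusted over all genes).

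SPDEF (PDEF), which drives secretory cell differentiation, had more than 7 reads per library in Detroit 562 alone. Its normalized counts there were 1829, 1728 and 1582 in the controls and 1411, 1208 and 1329.7 with HGF. All HGF libraries were below all controls, as held for 20.1% of all genes in that line. The log2 fold change of -0.38 ± 0.14 (SE) had an edgeR adjusted p of 0.0508 but missed the minimum of 0.4, also with the block. Without control 3 or HGF library 1 it was -0.43 and was called (adjusted p = 0.0421 and 0.0615). SPDEF had 2 to 7 reads per library in FaDu and 1 to 6 in SCC-9, and no fold change is given there.

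ELF5 (ESE-2), a factor of mammary and other glandular epithelia, lies on the minus strand at chr11:34478793-34513805, 107287 bases from EHF. It had 20, 23 and 13 reads in Detroit 562 controls and 3, 0 and 5 with HGF. FaDu had 4, 1 and 0 reads against 1, 1 and 0, and SCC-9 had 0, 0 and 1 against 0, 0 and 0. A count of 0 allows up to 3 reads, by counting error alone. The 3 Detroit 562 controls were above all other libraries. In that line all HGF libraries were below all controls for 20.1% of all genes. Since the Detroit 562 controls also carried ELF5 through the filter, its difference is given here as reads, without a test.

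**Figure D2:**
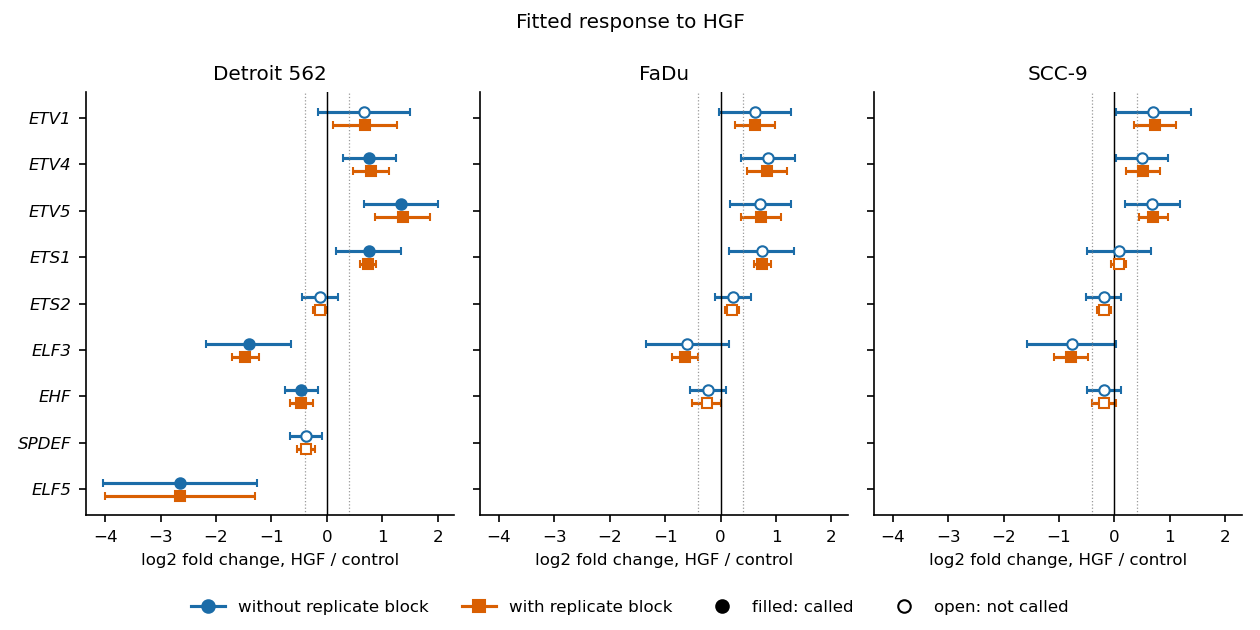
Log2 fold change of HGF against control with its 95% interval for each gene in the 3 lines, from the edgeR fit without the replicate block (blue circles) and with it (orange squares), where filled symbols passed the call rule, ELF5 being left out of the counts in the text, and dotted lines mark 0.4 in either direction. ETV5 reaches 1.34 and ELF3 -1.41 in Detroit 562. The PEA3 genes lie right of 0 and ELF3 left of 0 in all panels. SPDEF and ELF5 are drawn for Detroit 562 alone. The ELF5 symbols there are not read as a test, since the controls of that line carried it through the filter.

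The lines also differed in the levels of these genes before treatment. SPDEF and ELF5 passed the filter through Detroit 562 alone and are left out of the counts here. Of the other 7 genes, 6 were called between untreated Detroit 562 and FaDu (61% of all genes), 5 between Detroit 562 and SCC-9 (65.4%) and 5 between FaDu and SCC-9 (64.2%). ETS2 was called in none of the 3 comparisons with all libraries, and in FaDu against SCC-9 without FaDu control 2 (-0.46, adjusted p = 0.0143). EHF was highest in Detroit 562 and lowest in FaDu, with log2 differences of 5.04 ± 0.17 (SE) for Detroit 562 against FaDu, 2.86 ± 0.16 against SCC-9 and -2.18 ± 0.16 for FaDu against SCC-9 (edgeR adjusted p = 2.53e-13, 3.88e-11 and 1.37e-09). ELF3 was lower in SCC-9 than in Detroit 562 by 3.41 ± 0.39 and than in FaDu by 4.11 ± 0.41 on the log2 scale (adjusted p = 5.61e-07 and 8.46e-08). Detroit 562 and FaDu differed in ELF3 by -0.70 ± 0.35 (adjusted p = 0.0846), a call lost with DESeq2 (adjusted p = 0.126) and without Detroit 562 control 2 or 3 or FaDu control 1 or 2 (adjusted p from 0.125 to 0.222). SPDEF had 1465 to 1935 reads in untreated Detroit 562 against 1 to 5 in the other lines, and ELF5 had 13 to 23 against 0 to 4, both without a test.

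Among the PEA3 genes the order of the lines was not shared. ETV5 was lowest in Detroit 562 and highest in SCC-9, with log2 differences of -1.60 ± 0.31 for Detroit 562 against FaDu and -2.72 ± 0.26 for FaDu against SCC-9 (edgeR adjusted p = 0.000173 and 6.28e-08). ETV4 was lowest in FaDu, by 1.26 ± 0.23 against Detroit 562 and 1.70 ± 0.23 against SCC-9 (adjusted p = 0.000125 and 4.59e-06). Its difference between Detroit 562 and SCC-9, -0.45 ± 0.22 (adjusted p = 0.0799), was lost without Detroit 562 control 1 or 2 or SCC-9 control 1 or 2 (adjusted p from 0.159 to 0.29). ETV1 was lowest in Detroit 562, by 1.96 ± 0.36 against FaDu and 1.61 ± 0.37 against SCC-9 (adjusted p = 0.00012 and 0.000749), and FaDu and SCC-9 did not differ beyond their spread (0.35 ± 0.32, adjusted p = 0.337). ETS1 was lowest in FaDu, by 0.99 ± 0.28 against Detroit 562 and 1.43 ± 0.28 against SCC-9 (adjusted p = 0.00415 and 0.000197). Without the block Detroit 562 and SCC-9 did not differ beyond their spread in ETS1 (-0.44 ± 0.27, adjusted p = 0.155), except without Detroit 562 control 3 (-0.67, adjusted p = 0.055). The blocked fit called ETS1 lower in Detroit 562 than in SCC-9, but its block takes the spread between repeats out of the error. A comparison of lines rests on that spread, so no conclusion is drawn from this call.

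To compare genes with each other, the normalized counts were divided by exon length in kb, as a level per kb. Reads in introns were counted too, so this scale is approximate. Among 28 ETS family genes in untreated Detroit 562, EHF ranked 1st at 3809 ± 360.2 (SD, n = 3), 30.6% of the family sum, apart from the next gene. ELF3 followed at 1105 ± 199, with libraries that overlapped those of ELF2 below it. With HGF, ELF3 in this line was at 416 ± 163 and rank 11, and ETS1 went from rank 5 at 783 ± 199 to rank 2 at 1320.2 ± 421. These 3 ranks are not sharp, since the libraries overlapped those of the next gene in each case. In untreated FaDu ELF3 ranked 1st at 1799.96 ± 417, 24% of the family sum, apart from the next gene. With HGF its mean was again the highest, at 1182 ± 419, but its libraries overlapped those of ERF at 912 ± 109. In untreated SCC-9 ETS1 ranked 1st at 1062 ± 128, 13.8% of the sum and apart from the next gene, ETS2 was at rank 3 with 782 ± 46.7, overlapping its neighbours ELK3 and ERF, and ELF3 was at rank 17 with 104 ± 39.9. SCC-9 was also the line with the ETS gene FLI1, at 147 ± 21.8 per kb against 5.33 ± 2.16 in FaDu and 0 or 1 reads in Detroit 562.

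**Figure D3:**
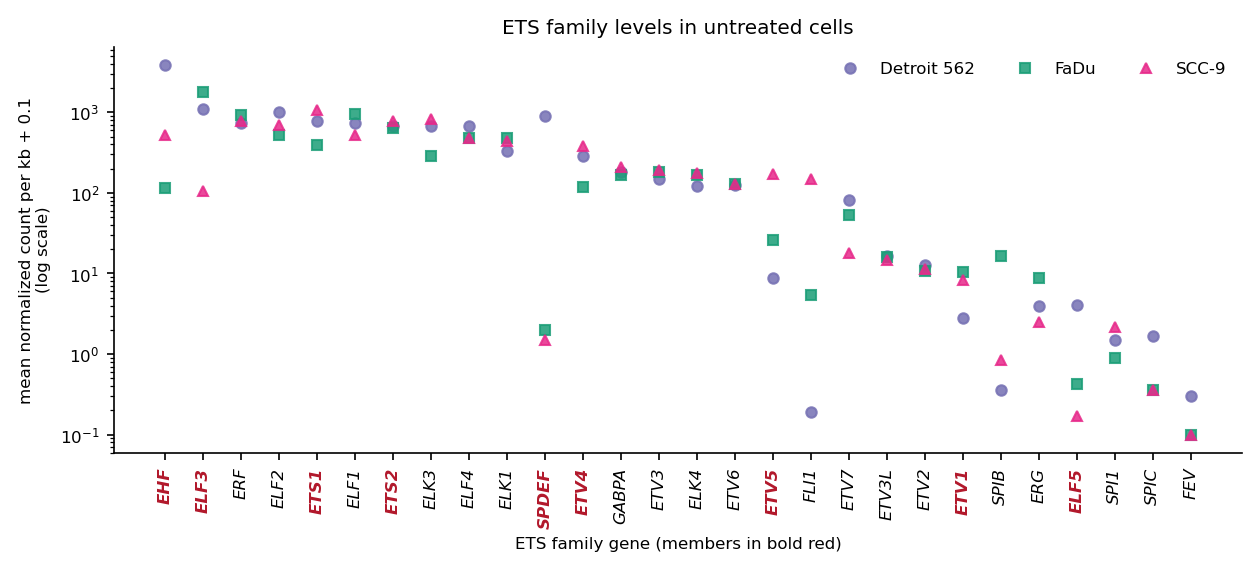
Mean normalized count per kb plus 0.1 (log axis) of 28 ETS family genes in untreated cells of the 3 lines, ordered by their mean over lines, with the 9 genes described here in bold red. EHF, ELF3 and SPDEF spread widely between the lines, from 1.39 to 895 per kb for SPDEF, while ETS2 lies between 635 and 782.

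Set against the family as a whole, the mean share of the PEA3 genes was 2.38% in Detroit 562 controls and 4.48% with HGF, 2.07% and 3.74% for FaDu, and 7.35% and 10.7% for SCC-9. The libraries of the 2 conditions did not overlap in any line. The share of the epithelial factors was 46.7% ± 4.18 (SD, n = 3) in Detroit 562 controls and 34.2% ± 1.57 with HGF, without overlap. It was 25.5% ± 5.02 and 17.4% ± 5.53 in FaDu, with overlap, and 8.2% ± 1.06 and 6.74% ± 0.42 in SCC-9. ETS1 and ETS2 together had 11.7% and 17% for Detroit 562, 13.7% and 19% for FaDu, and 24% and 23.2% for SCC-9. These shares are descriptions without a test.

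**Figure D4:**
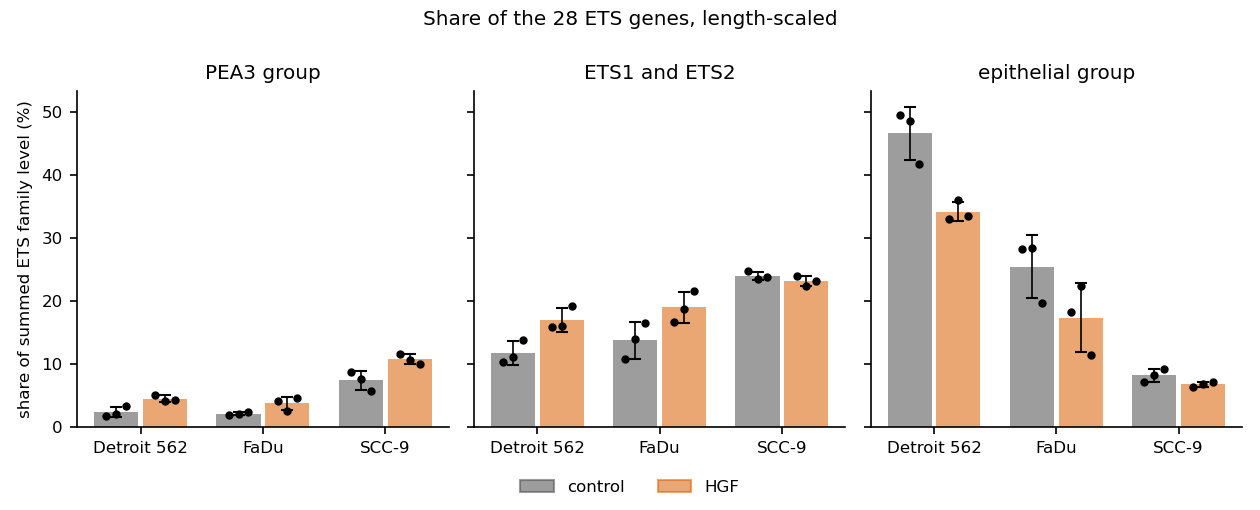
Share of the summed level per kb of 28 ETS family genes held by the PEA3 group, ETS1 with ETS2, and the epithelial group, as bars for the mean of 3 libraries with SD and points for single libraries, control in grey and HGF in orange. The epithelial share goes from 46.7% to 34.2% in Detroit 562, and the PEA3 share is higher with HGF in each line, up to 10.7% in SCC-9.

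Of the 19 other ETS family genes, 16 were tested, and 1 rose and 1 fell in Detroit 562, where 17.9% of all genes were called. ELK3, a ternary complex factor, rose by 0.50 ± 0.18 on the log2 scale (SE, edgeR adjusted p = 0.0497), and ETV7 fell by 1.26 ± 0.27 (adjusted p = 0.00464). The median log2 fold change over the 16 was -0.19, against -0.0056 over all genes. In FaDu and SCC-9, where the medians were 0.05 and -0.08, edgeR called none. It gave 1 and 0 an unadjusted p under 0.05, beside 8.06% and 4.14% of all genes. The blocked fit called 3 in FaDu (FLI1 and ERG up, ETV7 down), beside 5.6% of all genes, and none in SCC-9.

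Of the genes that control PEA3 factors, CIC, ATXN1 and ATXN1L form the repressor complex, the ubiquitin ligase genes RFWD2 (COP1) and DET1 and the adaptors TRIB1 and TRIB2 act on protein stability, and MAPK3 codes for an ERK kinase. In Detroit 562, 1 of these 8 rose, TRIB1 (0.72 ± 0.21, edgeR adjusted p = 0.0213), and 2 fell, ATXN1 (-0.56 ± 0.17, 0.0285) and MAPK3 (-0.44 ± 0.13, 0.0266), with a median of -0.10 over the list, beside 6.16% of all genes up and 11.7% down. In FaDu and SCC-9 edgeR called none, with 2 and 1 at an unadjusted p under 0.05 (8.06% and 4.14% of all genes). The blocked fit called TRIB1 and TRIB2 up in FaDu, beside 5.6% of all genes called. Of 8 other genes known to be switched on by ERK signaling, 5 rose in Detroit 562 (DUSP6, SPRY4, PHLDA1, DUSP4 and SPRY2), and the list's median change was 1.06 on the log2 scale. DUSP6, the phosphatase that turns ERK off, rose by 1.53 ± 0.20 in Detroit 562 and by 1.44 ± 0.19 in FaDu (adjusted p = 0.000247 and 0.0115), where it was the 1 gene of this list called without the block. In FaDu 6 of the 8 had an unadjusted p under 0.05 (8.06% of all genes), and in SCC-9 5 did (4.14%). With the block 6 rose in FaDu, where 5.6% of all genes were called, and 4 in SCC-9, where 1.97% were. In SCC-9 its log2 fold change was 0.47 ± 0.17 (adjusted p = 1, with the block 0.00766), and the list's median was 0.41.

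Of 10 genes reported as targets of PEA3 factors or ETS1, 4 rose and 1 fell in Detroit 562, against 6.16% and 11.7% of all genes. The collagenase gene MMP1 rose by 2.91 ± 0.35 on the log2 scale (SE, edgeR adjusted p = 0.000167), PTGS2 by 1.27 ± 0.35 (0.0163), the urokinase receptor gene PLAUR by 1.19 ± 0.30 (0.0101) and PLAU by 0.42 ± 0.16 (0.0677). MMP13, another collagenase gene, fell by 1.67 ± 0.44 (0.0127). The list's median was 0.29, and MET, also on it, had a log2 fold change of 0.15 ± 0.10. In FaDu and SCC-9 edgeR called none of the 10 without the block. It gave 2 and 0 an unadjusted p under 0.05 (8.06% and 4.14% of all genes). With the block 4 rose and 2 fell in FaDu (5.6% of all genes called) and 1 rose and 1 fell in SCC-9 (1.97%). Of 15 genes reported as targets of epithelial ETS factors, 11 were tested, and 2 fell in Detroit 562, AGR2 (-1.36 ± 0.29, adjusted p = 0.00423) and ANGPT1 (-0.80 ± 0.29, 0.0511), a share near the 17.9% of all genes called. AGR2 codes for a protein disulfide isomerase of secretory cells. The median over the 11 was -0.28 for Detroit 562, 0.00024 for FaDu and -0.019 for SCC-9. In the last 2 lines none was called by edgeR without the block, with 2 and 1 at an unadjusted p under 0.05 (8.06% and 4.14% of all genes). With the block 1 rose and 3 fell in Detroit 562 (SPRR2A up, and KRT4, ANGPT1 and AGR2 down), beside 21.5% of all genes called. In FaDu 1 rose and 3 fell with the block (SPRR2A up, and KRT4, LCN2 and AGR2 down), beside 5.6%. None was called in SCC-9 (1.97%). The epithelial markers CDH1 (-0.49), KRT5 (-0.90) and KRT8 (-0.76) also fell in Detroit 562, 3 of 7 on their list, against 11.7% of all genes.

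After centring each gene on the mean of its line, the genes outside the ETS family with the most similar course over the 18 libraries were listed among 13138, 3 for each of the 9 genes except ETS1, which has 2 here. These correlations are descriptions, since all libraries share the HGF contrast and the replicate numbers. ETV4 went with the neurotensin receptor gene NTSR1 (r = 0.961), ADAM8 (0.953) and DUSP4 (0.951). ETV5 went with TNS4, RPS19BP1 and ACTN1 (0.928 to 0.933) and ETV1 with C20orf100, BUD13 and EPHA2 (0.857 to 0.933). ETS1 went with BCAR3 (0.969) and AMIGO2 (0.965). ELF3 went with TNFSF10, the gene of the death ligand TRAIL (0.977), SLC29A3 (0.970) and the retinoic acid receptor gene RARG (0.970), and EHF with ATXN1 (0.957), EXOC6B and ATP9A. The values were lower for ETS2, with AHNAK2, KIAA1462 and TRERF1 at 0.833 to 0.840, and for SPDEF, with PRDM1 at 0.790, TMEM243 and ZNF619. ELF5 went with RP11-807H22.10, LZTFL1 and LRTOMT at 0.878 to 0.885, with few reads outside Detroit 562. Among the 9 genes themselves, r was 0.888 for ETV1 and ETV5, 0.841 for ETV4 and ETV5, 0.856 for ETV4 and ETS1, and -0.845 for ETV4 and ELF3.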

How the data were processed

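Libraries were made by the authors with a stranded mRNA kit, and their reads were trimmed with Cutadapt (1.16), aligned with STAR (2.5.2b) to GRCh38.p12 with GENCODE 28 and counted per gene with bedtools. The deposited values are raw counts of reads on the gene's strand anywhere in its extent, introns included, and a read in overlapping genes counts for each.

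The analysis used edgeR (4.0.16), limma (3.58.1) and DESeq2 (1.42.0) under R 4.3.3. After filterByExpr (minimum count 10) and TMM normalization, a quasi-likelihood model with a mean for each of 6 groups was fitted to all 18 libraries. Genes were called at a Benjamini-Hochberg adjusted p below 0.1 over all 15475 genes tested and a log2 fold change of 0.4 or more in size, interactions by adjusted p alone. Intervals are 95%. The model was tested on simulated data with the same spread for all genes, no line differences and no replicate effect. That test does not bear on the choice between blocked and unblocked calls. Alternatives were a block for the replicate number, other normalizations, other filters, DESeq2, and leaving out each library. The block was used beside the main results because control and HGF libraries of 1 number deviated together, with correlations of 0.323 to 0.683 in the 3 lines. The methods also say that the experiment was repeated. Different numbers gave -0.296 to -0.202, values that centring on the group means makes negative when the others are positive, so they add no separate support. Exact permutation tests used all 8000 within-line arrangements of log2 CPM. Within 1 line, 3 against 3 libraries allow no p under 0.1.

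The genes and lists were chosen with earlier results of these data known. Up to 5 genes per list were named, those with the smallest p, plus MET and DUSP6 for reference and the 3 genes most alike each ETS gene (mean normalized count of at least 50). A gene among the regulators of PEA3 factors, left out of that list's counts and median, and a gene alike ETS1 are not reported here. FLI1, ERG, TRIB2, COL1A1, SPRR2A, KRT4 and LCN2 were named after their values were seen. Exon lengths are from GENCODE 44. Motifs were searched on both strands.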

Additional observations from a re-analysis of the deposited data

Results flagged for a closer look

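ETS2 was lower with HGF in all 3 pairs of Detroit 562 and higher in all 3 of FaDu, and the difference between the log2 fold changes was -0.35 (edgeR adjusted p of the interaction 0.542, with the replicate block 0.0176). It was likewise higher in FaDu and lower in all 3 pairs of SCC-9, with a difference of 0.41 (adjusted p = 1, with the block 0.0359).

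SPDEF was lower with HGF in all 3 pairs of Detroit 562 and higher in all 3 pairs of SCC-9, with a fitted difference of -1.33 on the log2 scale (edgeR adjusted p = 0.279, with the block 0.115). In SCC-9 the direction rests on 2, 1 and 5 reads in the controls and 5, 5 and 6 with HGF.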

How the results depend on the processing

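The counts here leave out ELF5. With the replicate block the number of the other 8 genes called went from 0 to 5 in FaDu, where 5.6% of all genes were called. In SCC-9 it went from 0 to 4 (1.97% of all genes). The number with a different HGF response went from 0 to 2 for Detroit 562 minus FaDu (19.1% of all genes with the block). It went from 0 to 3 for Detroit 562 minus SCC-9 (26.9%) and from 0 to 2 for FaDu minus SCC-9 (1.32%). DESeq2, with or without its prior, called 1 gene in FaDu. The block was set within each line, so it pairs no untreated libraries of different lines. It takes the spread between repeats out of the error of comparisons between lines. Whether same-numbered repeats of the 3 lines were run together is not stated. The blocked fit called 9641, 10242 and 10066 of all genes between untreated Detroit 562 and FaDu, Detroit 562 and SCC-9, and FaDu and SCC-9, against 9447, 10118 and 9934 without it. Leaving out each library in turn gave 2 to 7 genes called in Detroit 562, the lowest without control 1 and the highest without control 3. In FaDu it gave 0 to 1, the highest without HGF library 2. Upper-quartile and DESeq2 size factors, no filter, and a filter of 50 counts in 3 libraries changed none of these counts by more than 1.5 times. Small differences changed sign when 1 library was left out, without being called: ETS2 in FaDu ranged from -0.00266 to 0.38 on the log2 scale, ETS1 in SCC-9 from -0.0411 to 0.182, ETS2 averaged over the lines from -0.106 to 0.0219, and ETS2 in untreated Detroit 562 against FaDu from -0.0425 to 0.246. The causes of these changes were not tested. Counts under about 40 reads per library, as for ETV1 in Detroit 562, ETV5 in Detroit 562 controls 1 and 2, and ELF5, limit those values.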
